A study of Mus musculus with 6 samples.

Results

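The 10 genes described here, Ptchd3, Abca4, Abca9, Kcnk2, Pianp, Ackr4, Adam23, Ptprq, Tshz2 and Zfp185, were chosen from 46078 genes in the count tables because their levels were lower in Idh1 mutant growth plates than in controls. The choice was made on the same 6 libraries, so the levels and fold changes below are a description and carry no test. The rule for the choice named no cutoff on level or fold change. All 10 genes were found under 1 identifier each, and all 10 passed the expression filter that left 16813 genes for the fit across all genes. The name under which they were grouped, membrane and nuclear genes, holds for 9 of them as far as their known functions go. Zfp185 is the exception, because its product is a LIM-domain protein of the actin cytoskeleton rather than a membrane or nuclear protein.

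Growth plate cartilage of the distal femur and proximal tibia was taken from mouse embryos at E18.5, and 3 control and 3 mutant libraries were sequenced. Control animals were Idh1 LSL/+, carrying a mutant Idh1 allele behind a lox-stop-lox cassette but no Cre. Mutant animals were Col2a1-Cre; Idh1 LSL/+, so that the same allele, shared by both groups, was switched on by a Cre driven from the Col2a1 promoter, which is active in chondrocytes and in earlier skeletal progenitors. Presence of Cre and expression of mutant Idh1 went together, and their effects cannot be told apart. The methods call the controls littermates, while the labels name no litter and, in their text on breeding, give an older age than E18.5. Mutant 3 had 26356 counts of Xist and 512 of Y-linked genes. In the other libraries these were 0 to 13 and 4193 to 5829. By these counts mutant 3 was female and the others were male, so only the mutant group mixed sexes. The part of sex in the levels was not tested. The libraries held 23445687 to 30415773 counted reads. The smallest visible level was taken as 3 counts, between 0.0979 and 0.127 CPM (counts scaled to library size with TMM factors). This level covers counting error only.

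Cartilage of the growth plate is made by chondrocytes that divide in columns, enlarge and lay down matrix rich in type II collagen. Tendon and ligament insertions, perichondrium, vessels and muscle lie around it and can be carried along in dissection. Most of the 10 genes are known from other tissues. They encode transporters and a channel, receptors and other cell-surface proteins, a DNA-binding factor and a protein of the actin cytoskeleton. In bulk tissue a lower level from fewer cells of a type and a lower level from less RNA per cell cannot be told apart.

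The DNA just before the transcription start is shown for 5 of the genes, because these span the range of CG content and of level in the group: Zfp185 with the highest level per length, Abca9 with few CG, Adam23 with the most CG at the start nearest the gene's annotated end, Abca4 with a TATAAA and Ptchd3 with the lowest level per length. Sequences are from RefSeq (GRCm38.p6), written 5′ to 3′ on the strand of the gene and ending before both the RefSeq start and the start of the gene in the count tables. Capitals mark CG, TATAAA and CCAAT (or ATTGG, the same motif on the other strand).
Zfp185, chrX:72987089-72987338, forward strand: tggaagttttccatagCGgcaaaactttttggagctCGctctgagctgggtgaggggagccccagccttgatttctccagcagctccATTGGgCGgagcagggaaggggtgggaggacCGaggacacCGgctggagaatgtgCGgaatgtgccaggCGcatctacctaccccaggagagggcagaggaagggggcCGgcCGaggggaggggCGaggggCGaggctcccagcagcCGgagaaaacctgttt
Abca9, chr11:110168197-110168403, reverse strand: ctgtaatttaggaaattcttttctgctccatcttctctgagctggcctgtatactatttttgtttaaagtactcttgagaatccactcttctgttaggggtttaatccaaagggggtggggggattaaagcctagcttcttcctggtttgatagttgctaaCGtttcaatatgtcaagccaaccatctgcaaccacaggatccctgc
Adam23, chr1:63445641-63445890, forward strand: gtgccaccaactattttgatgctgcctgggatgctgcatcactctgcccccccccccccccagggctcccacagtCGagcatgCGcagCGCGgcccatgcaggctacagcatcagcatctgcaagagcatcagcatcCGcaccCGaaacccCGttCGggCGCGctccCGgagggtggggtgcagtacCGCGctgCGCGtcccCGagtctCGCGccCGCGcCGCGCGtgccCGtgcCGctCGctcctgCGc
Abca4, chr3:122044210-122044442, forward strand: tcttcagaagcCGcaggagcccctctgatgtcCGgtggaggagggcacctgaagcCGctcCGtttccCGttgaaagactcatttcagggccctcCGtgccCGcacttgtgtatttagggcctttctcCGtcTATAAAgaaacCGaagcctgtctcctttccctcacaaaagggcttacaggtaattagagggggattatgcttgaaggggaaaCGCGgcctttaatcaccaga
Ptchd3, chr11:121829968-121830217, forward strand: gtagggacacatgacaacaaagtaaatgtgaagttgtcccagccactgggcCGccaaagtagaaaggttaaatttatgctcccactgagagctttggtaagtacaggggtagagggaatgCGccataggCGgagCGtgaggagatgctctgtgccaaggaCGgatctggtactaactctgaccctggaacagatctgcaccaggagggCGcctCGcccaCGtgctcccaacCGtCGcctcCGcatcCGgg
These stretches hold 12 CG for Zfp185, 1 for Abca9, 27 for Adam23, 11 for Abca4 and 12 for Ptchd3.

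RefSeq promoters of 300 bases, 250 before and 50 after the start, were matched by symbol for 9 of the 10 genes, with 14 starts between them. At the start nearest the gene's annotated end the number of CG was 31 for Adam23, 22 for Pianp, 20 for Zfp185, 15 for Abca4, 14 for Ptchd3, 10 for Ackr4, 6 for Kcnk2, 2 for Abca9 and 2 for Tshz2. Over all 32851 promoters of that length the median was 7 and the quartiles were 3 and 20. Adam23 and Pianp thus lay above the upper quartile, and Abca9 and Tshz2 lay below the lower. Other starts of a gene can differ, as in Kcnk2, where a pair of starts inside the gene had 33 CG each.

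Motifs were searched on both strands and are given over all 14 promoters of these 9 genes, of which Kcnk2 and Pianp have more than 1 start. TATAAA was found in 2 of the 14, those of Abca4 and Ackr4, and in 13.6% of all promoters. In Abca4 it lay 119 bases before the RefSeq start. CCAAT was found in 4 of the 14, for Zfp185, Tshz2 and 1 start each of Kcnk2 and Pianp, and in 37.4% of all promoters. The match in Zfp185 was on the reverse strand, 163 bases before the RefSeq start. CANNTG, the E-box, was found in 9 of the 14 and in 72.3% of all promoters. These are matches of letters and not shown binding sites.

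In each of the 10 genes every mutant library was below every control library. Of all 16813 genes tested, 7.58% were lower in the mutants without overlap, a background from which nothing is read here because this contrast chose the genes. In the fit across all genes (edgeR quasi-likelihood, Benjamini-Hochberg adjusted), 9 of the 10 were among the 23 genes called lower, which were 0.137% of those tested, and Ptprq was not. These calls support nothing, because the same contrast chose the genes, and they fell to 0 of 10 without mutant 2, to 1 of 10 (Tshz2) when any 1 of the other libraries was left out, and to 0 with the replicate number as a block. The mean level in the mutants was between 13.7% and 66.8% of the control mean. The log2 fold changes ran from -2.87 to -0.58 with a median of -0.92, while the median over all genes tested was -0.0026.

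**Figure D1:**
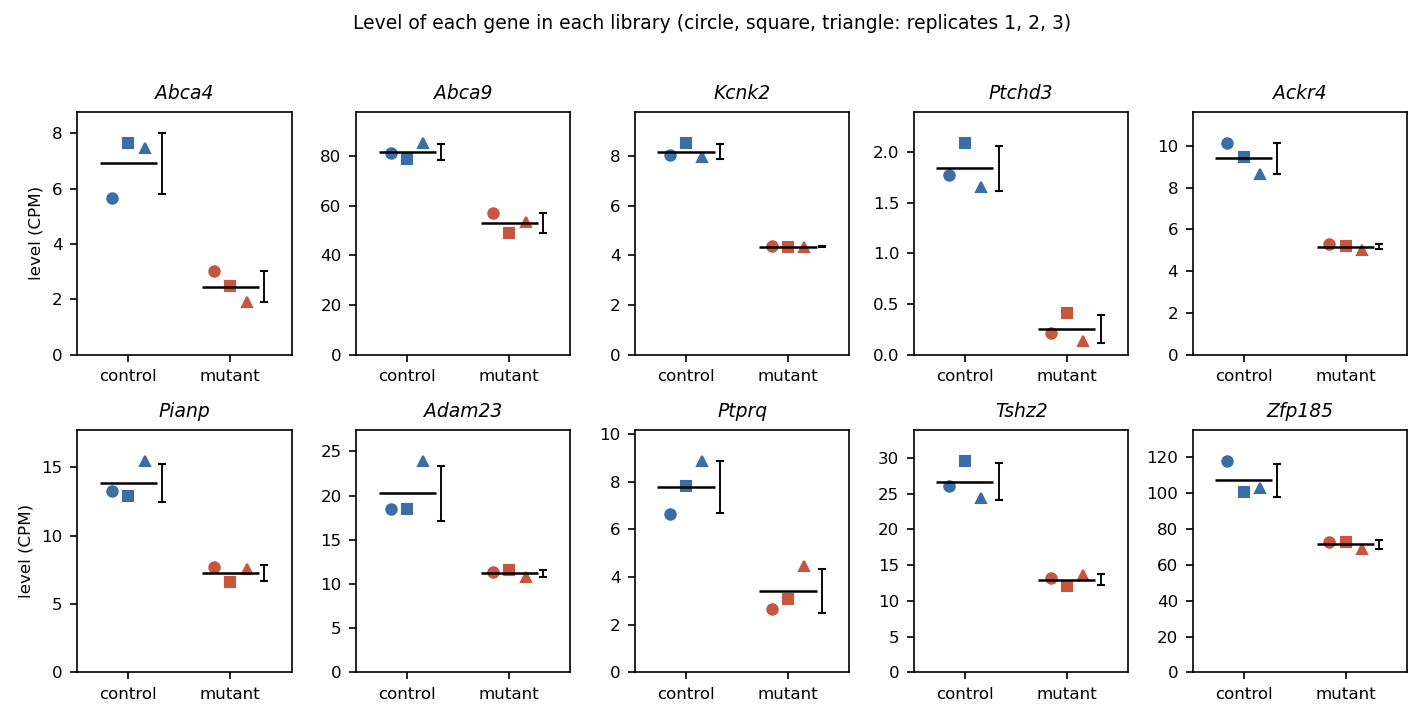
Level in CPM (vertical axis, from 0) of each of the 10 genes in the 3 control libraries (blue) and the 3 mutant libraries (red), with the group mean as a line and its SD as a bar. Every mutant point lies below every control point, with the widest gap relative to level in Ptchd3 and the narrowest in Zfp185.

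Among the transporters and channels, Abca9 had the highest level per length and Ptchd3 the largest fold difference. Abca9 (ENSMUSG00000041797, chr11:110100749-110168196, reverse strand of GRCm38) belongs to subfamily A of the ABC transporters, many of which move lipids, and lies in a cluster with its closest relatives. In controls it stood at 81.4, 78.9 and 85.2 CPM and in mutants at 57.2, 49.2 and 53.3 CPM. The controls lay within a narrow range, and the lowest of them was 1.380-fold above the highest mutant. The means were 81.8 ± 3.18 and 53.2 ± 3.99 CPM (SD, n = 3 each), a log2 fold change of -0.62 (SE 0.08).

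Abca4 (ENSMUSG00000028125, chr3:122044443-122180123, forward strand) encodes the retinoid flippase of photoreceptor discs. Control levels were 5.65, 7.63 and 7.48 CPM, mutant levels 3.01, 2.48 and 1.90 CPM. Control 1 was the lowest of the controls and mutant 1 the highest of the mutants, and they were still 1.88-fold apart. The means were 6.92 ± 1.11 and 2.46 ± 0.557 CPM (SD, n = 3 each), and the log2 fold change was -1.50 (SE 0.22).

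Kcnk2 (ENSMUSG00000037624, chr1:189207930-189402273, reverse strand) encodes TREK-1, a background potassium channel of the K2P family that opens on stretch of the membrane. The control libraries held 8.06, 8.52 and 7.99 CPM, against 4.37, 4.35 and 4.34 CPM in mutant libraries. The mutants lay closer together than counting alone would give, with a coefficient of variation of 0.284% where 9.45% comes from the mean count. The log2 fold change was -0.91 (SE 0.14), and the mutant mean was 53.1% of the control mean. Of its exon bases 12.2% are shared with A430027H14Rik, and reads there could not be assigned to either gene.

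Ptchd3 (ENSMUSG00000039198, chr11:121830247-121843423, forward strand) encodes a protein of the Patched-domain family that was described in male germ cells. Controls held 50, 64 and 46 reads of it, or 1.78, 2.09 and 1.66 CPM. Mutants held 5, 10 and 4 reads, or 0.212, 0.406 and 0.138 CPM. The mutants held few reads each, all above the smallest visible level. The log2 fold change was -2.87 (SE 0.39), and the 9 pairs of a control and a mutant library gave folds between 4.09 and 15.1. The coefficient of variation among the mutants was 55.0%, where 39.7% comes from the mean count. Markers of male germ cells summed to between 0.506 and 0.781 CPM in the controls and between 0.345 and 0.731 CPM in the mutants, and 0 of their 5 genes passed the expression filter.

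Among the receptors and cell-surface proteins, Ackr4, Pianp and Adam23 had similar fold changes and Ptprq had a larger one with more spread. Ackr4 (ENSMUSG00000079355, chr9:104084157-104126933, reverse strand) encodes an atypical receptor that takes up the chemokines CCL19, CCL21 and CCL25 without signalling through G proteins. In controls it stood at 10.1, 9.49 and 8.64 CPM and in mutants at 5.30, 5.20 and 5.03 CPM. Controls spread more widely than mutants. The log2 fold change was -0.86 (SE 0.13). It shares 9.06% of its exon bases with Acad11.

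Pianp (ENSMUSG00000030329, chr6:124996694-125003096, forward strand) encodes a membrane protein that is a ligand of the inhibitory receptor PILRA and binds GABA-B receptors. Control levels were 13.2, 12.9 and 15.4 CPM, mutant levels 7.67, 6.62 and 7.58 CPM. Control 3 was the highest and mutant 2 the lowest. The means were 13.9 ± 1.37 and 7.29 ± 0.581 CPM (SD, n = 3 each), and the log2 fold change was -0.92 (SE 0.13).

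Adam23 (ENSMUSG00000025964, chr1:63445891-63596276, forward strand) encodes a member of the ADAM family without protease activity, which binds LGI proteins and integrins. The control libraries held 18.4, 18.47 and 23.9 CPM, against 11.4, 11.5 and 10.8 CPM in mutant libraries. Control 3 stood above the other two controls, and the mutants lay close together. The log2 fold change was -0.85 (SE 0.13), and without control 3 it was -0.71.

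Ptprq (ENSMUSG00000035916, chr10:107517049-107720051, reverse strand) encodes a receptor-type phosphatase that acts on phosphoinositides and is needed in the hair bundles of the inner ear. In controls it stood at 6.64, 7.83 and 8.85 CPM and in mutants at 2.67, 3.09 and 4.45 CPM. Mutant 3 was the highest of the mutants, and without it the log2 fold change moved from -1.18 (SE 0.21) to -1.43. The means were 7.77 ± 1.11 and 3.40 ± 0.928 CPM (SD, n = 3 each).

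Tshz2 was the nuclear member and Zfp185 the cytoskeletal one. Tshz2 (ENSMUSG00000047907, chr2:169633013-170071816, forward strand) encodes a zinc-finger transcription factor of the teashirt family, whose members act mainly as repressors. Control levels were 26.1, 29.5 and 24.4 CPM, mutant levels 13.2, 12.1 and 13.6 CPM. The groups lay far apart relative to their spread, with a log2 fold change of -1.04 (SE 0.11). Its annotated exons share 67.5% of their bases with Gm26883 and A630075F10Rik, and Gm26883 had 1 count in all controls and 5 in all mutants.

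Zfp185 (ENSMUSG00000031351, chrX:72987339-73031543, forward strand) encodes the actin-associated LIM protein and had the highest level per length of the 10 genes. The control libraries held 117.7, 100.4 and 103.0 CPM, against 72.9, 72.9 and 68.6 CPM in mutant libraries. Control 1 was the highest, and the lowest control was 1.377-fold above the highest mutant, the narrowest gap of the 10 genes. The means were 107 ± 9.34 and 71.5 ± 2.46 CPM (SD, n = 3 each), and the log2 fold change was -0.58 (SE 0.08), the smallest of the group. The gene is X-linked and mutant 3, which had 26356 counts of Xist where the other libraries had between 0 and 13, lay at 68.6 CPM beside 72.9 CPM in both other mutants.

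To compare genes with each other, levels were divided by the length of exon not shared with another gene. In the controls Zfp185 came first with 28.9 CPM per kilobase (27.1 to 31.8), followed by Tshz2 with 10.5 (9.65 to 11.7) and Abca9 with 10.2 (9.80 to 10.6). Pianp followed with 5.03 CPM per kilobase (4.68 to 5.60). Next came Ackr4 with 1.959, Kcnk2 with 1.89, Adam23 with 1.13 and Ptprq with 1.05 CPM per kilobase. Abca4 with 0.576 and Ptchd3 with 0.533 CPM per kilobase were the lowest, and the highest and lowest gene differed 54.2-fold. Neighbours in this order whose control libraries overlapped were Tshz2 and Abca9, Ackr4 and Kcnk2, Adam23 and Ptprq, and Abca4 and Ptchd3. Over all exon bases Tshz2 came to 3.43 CPM per kilobase, so its place depends on how the shared bases are treated.

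**Figure D2:**
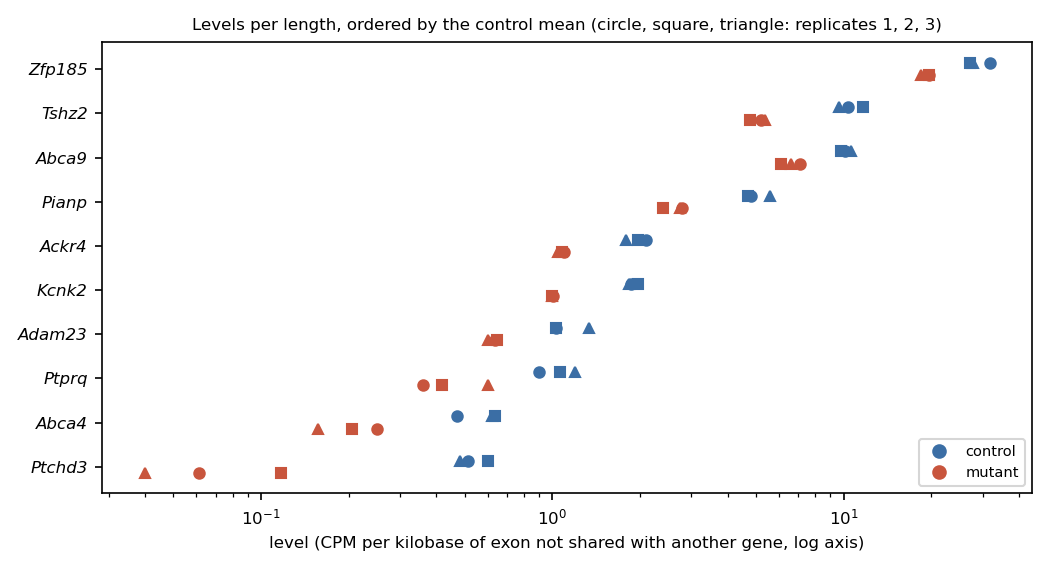
Level per kilobase of unshared exon (CPM per kilobase, log axis) of the 10 genes in the control (blue) and mutant (red) libraries, in the order of the control mean. Levels run from 28.9 for Zfp185 to 0.533 for Ptchd3 in the controls, and the mutant points lie to the left of the control points in every row.

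The spread of the genes within the groups was also compared, after each group's mean was taken off. Mutant 3, female by its Xist and Y-linked counts, was the lowest of the mutants in 6 genes, mutant 2 in 3 and mutant 1 in 1. The highest control was control 1 in 2 genes, control 2 in 4 and control 3 in 4. Over the 6 libraries the 45 pairs of genes had a median Pearson r of -0.07, from -0.79 for Ackr4 and Adam23 to 0.86 for Abca9 and Pianp, with 20 pairs above 0. The points share depth and scaling and leave few degrees of freedom.

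The genes whose pattern over the 6 libraries was most like the mean of the 10, by Pearson r of log2 CPM, were Spon1 (0.998), Tet1 (0.994), Krtdap (0.993), Naif1 (0.993) and Pthlh (0.992). This likeness over 6 libraries mostly reads the difference between the groups and is given without a test. Spon1, which encodes the matrix protein F-spondin, stood at 44.1, 45.8 and 47.5 CPM in controls and at 18.3, 18.53 and 16.5 CPM in mutants. Pthlh, the secreted regulator that holds growth plate chondrocytes in proliferation, stood at 3.45, 4.05 and 3.79 CPM in controls and at 1.65, 1.62 and 1.45 CPM in mutants. The log2 fold changes were -1.37 for Spon1, -1.26 for Pthlh, -0.93 for Krtdap, -0.24 for Tet1 and -0.12 for Naif1.

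Relatives of the 10 genes, taken from their families and known partners, were examined in the same fit. Of 107 relatives in 9 lists, 86 were tested, and 0 were called by edgeR, lower or higher, beside 0.19% of all genes (0.137% lower and 0.0535% higher). The lowest adjusted p was 0.190 for Abca8a by edgeR with the same adjustment. At an unadjusted p under 0.05 there were 12 relatives, 7 lower and 5 higher, or 13.95% of those tested beside 8.64% of all genes (4.93% lower and 3.71% higher). Without overlap between the groups, 7 relatives were lower and 4 higher, beside 7.58% and 6.85% of all genes. DESeq2 called 2, Abca8a and Ptch1, both lower, and limma-voom called 0. The median log2 fold change of the relatives was 0.01, and only Abca8a was below the weakest of the 10 genes. The 10 genes were chosen for lower levels and the relatives were not, so nothing is read from this gap.

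**Figure D3:**
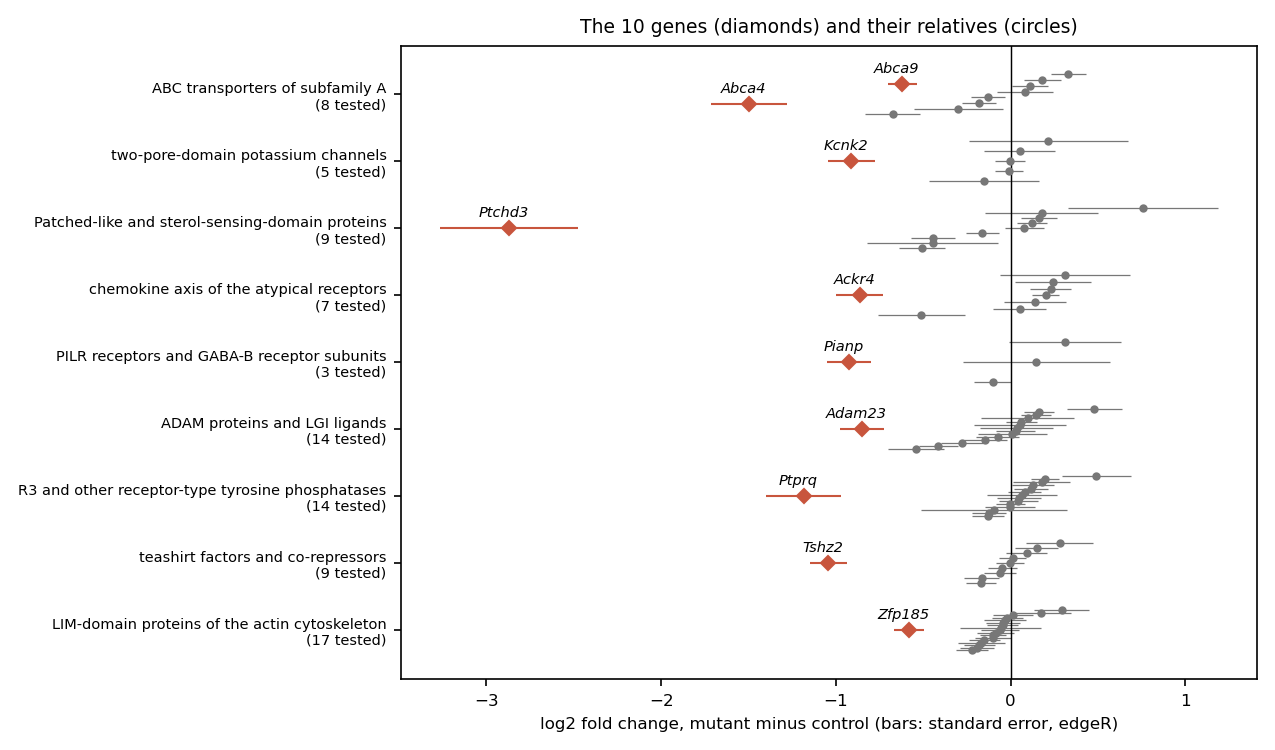
Log2 fold change of mutants against controls (horizontal axis, bars for the standard error) of the 10 genes (diamonds) and of their 86 tested relatives (circles), by list. The relatives scatter around 0 with a median of 0.01, and the diamonds lie between -2.87 and -0.58. Only the diamonds were chosen for lower levels in the mutants, so nothing is read from the gap.

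Within subfamily A of the ABC transporters 8 of 14 relatives were tested. Abca8a, which neighbours Abca9 at a distance of 4.77 kb, had mean levels of 25.2 ± 4.99 and 15.8 ± 2.29 CPM (SD, n = 3 each) and a log2 fold change of -0.68 (SE 0.16). Abca7, a lipid transporter of phagocytes and other cells, had a log2 fold change of 0.33 (SE 0.10, adjusted p = 0.379, edgeR). Of the K2P channels 5 of 13 were tested, and the pair with the lowest p, Kcnk3 and Kcnk13, had log2 fold changes of -0.15 (SE 0.31) and 0.21 (SE 0.45).

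Among the Patched-like and sterol-sensing proteins 9 of 10 were tested. Ptch1, the hedgehog receptor and a transcriptional target of hedgehog signalling, had mean levels of 124 ± 10.8 and 86.9 ± 16.7 CPM (SD, n = 3 each), a log2 fold change of -0.51 (SE 0.13) and an adjusted p of 0.265 by edgeR. The groups did not overlap in Ptch1, and it did not pass the test. The median of the list was 0.08.

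Around the chemokine receptor Ackr4, 7 of 10 relatives were tested. Cxcl12, the ligand of CXCR4 and ACKR3, had a log2 fold change of 0.20 (SE 0.08, adjusted p = 0.502, edgeR), and Ccl21a, a ligand of CCR7 and ACKR4, had -0.51 (SE 0.25, adjusted p = 0.631, edgeR). Of the partners of Pianp 3 of 5 were tested. Its receptor gene Pilra had a log2 fold change of 0.31 (SE 0.32), and the GABA-B subunit gene Gabbr1 had -0.10 (SE 0.10).

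All 14 ADAM and LGI genes were tested. Adam22, a close relative of Adam23 that also binds LGI proteins, had mean levels of 16.04 ± 1.69 and 12.04 ± 0.615 CPM (SD, n = 3 each) and a log2 fold change of -0.41 (SE 0.11, adjusted p = 0.298, edgeR). Lgi2, a secreted ligand of this receptor group, had a log2 fold change of -0.54 (SE 0.16, adjusted p = 0.334, edgeR). Of the receptor-type tyrosine phosphatases 14 of 15 were tested, and Ptprz1 and Ptprs had log2 fold changes of 0.49 (SE 0.20) and 0.20 (SE 0.08), with adjusted p of 0.524 and 0.543 by edgeR.

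All 9 teashirt factors and their partners were tested, and Tshz1, a close relative of Tshz2, had a log2 fold change of -0.17 (SE 0.10, adjusted p = 0.714, edgeR). Among the LIM-domain proteins all 17 were tested. Csrp1, a LIM protein of smooth muscle and fibroblasts, had -0.22 (SE 0.09, adjusted p = 0.551, edgeR), and Lima1, which bundles actin filaments, had -0.18 (SE 0.09, adjusted p = 0.646, edgeR). The medians of these lists were -0.01 and -0.06.

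Idh1 itself, the targeted gene, stood at 37.3, 39.2 and 65.4 CPM in controls and at 47.6, 47.7 and 56.3 CPM in mutants, with a log2 fold change of 0.10 (SE 0.19, adjusted p = 0.940, edgeR). Counts per gene do not separate the mutant from the normal allele, and this level was not used to check a label. The 8 chondrocyte markers, among them Col2a1 and Acan, were all present and summed to between 3244 and 6594 CPM in the controls and between 5113 and 7203 CPM in the mutants. Markers of skeletal muscle, which lies beside the growth plate, summed to between 12851 and 18877 CPM in the controls and between 12229 and 17870 CPM in the mutants, above the chondrocyte markers in both groups. The libraries thus held muscle RNA beside that of cartilage.

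Some marker lists moved with the 10 genes. For scale, of all 16813 genes tested edgeR called 0.137% lower, and DESeq2 called 140 genes lower, or 70 with the replicate number as a block. Without overlap 7.58% of all genes were lower and 6.85% higher. At an unadjusted p under 0.05 (edgeR) 4.93% were lower and 3.71% higher. Of the 6 tendon and ligament markers edgeR called 1 lower and DESeq2 called 5. The gene called by edgeR was Tnmd, a membrane protein of tenocytes, with a log2 fold change of -0.81 (SE 0.12, adjusted p = 0.0374), and every marker but Thbs4 was lower without overlap. Their summed level was 3208 to 3441 CPM in the controls and 2110 to 2472 CPM in the mutants, or 69.4% of the control mean. Of the 5 erythroid markers 0 were called by edgeR and 1 by DESeq2 (Alas2, the rate-limiting enzyme of haem synthesis in red cells), while DESeq2 with the replicate number as a block called 4, 4 had an unadjusted p under 0.05 and all 5 were lower without overlap, with sums of 534 to 1530 CPM and 279 to 413 CPM. Of the keratinocyte markers Krt5 was called lower, from 83, 242 and 153 counts to 8, 0 and 11 counts (log2 fold change -4.46, adjusted p = 0.0355, edgeR), while Krt10 and Trp63 had log2 fold changes of -0.04 and -0.16. Osteoblast markers summed to 366 to 1571 CPM in the controls and 1420 to 2386 CPM in the mutants, and macrophage markers to 203 to 221 CPM and 227 to 305 CPM, with 0 called by edgeR, DESeq2 or limma-voom and 2 and 4 genes higher at an unadjusted p under 0.05. In the other marker lists no gene was called by these tools. At an unadjusted p under 0.05 (edgeR) 2 endothelial genes, Kdr and Emcn, were higher, both without overlap. By the same measure 1 joint surface gene, Prg4, was lower (log2 fold change -0.73, groups overlapping). The part of the cell types of these lists in the lower levels of the 10 genes was not tested.

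**Figure D4:**
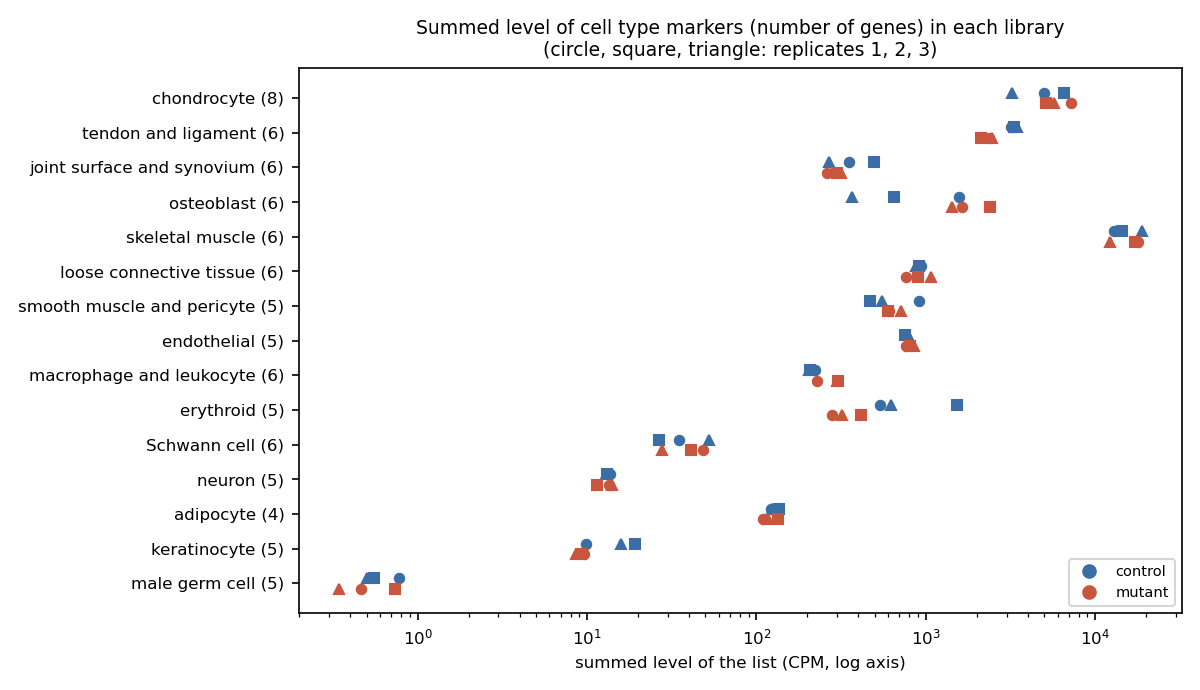
Summed level of each list of cell type markers (CPM, log axis, number of genes in parentheses) in the control (blue) and mutant (red) libraries. The sums of tendon, erythroid and keratinocyte markers are lower in every mutant than in every control, and those of macrophage markers are higher. Of the 3 keratinocyte markers tested only Krt5 was lower without overlap, and the groups overlapped in Krt10 and Trp63. The sums of skeletal muscle markers overlap between the groups and exceed those of chondrocytes.

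With the group means taken off, the 10 genes were set beside the tendon list over the 6 libraries. Pearson r ran from -0.72 for Ptchd3 to 0.72 for Tshz2, with a median of 0.08 and 6 of 10 above 0. For the erythroid list r ran from -0.68 for Abca9 to 0.86 for Kcnk2, with a median of 0.03. Over all genes tested the medians were 0.02 for the tendon list and 0.03 for the erythroid list. With other lists the medians of the 10 genes were 0.004 (chondrocyte), 0.20 (skeletal muscle), -0.20 (joint surface), -0.21 (loose connective tissue) and -0.23 (osteoblast). Values for 1 gene were as wide there. With the chondrocyte list Tshz2 had 0.88 and Adam23 -0.85, and with skeletal muscle they had -0.71 and 0.84. These values describe 6 libraries that share depth and scaling, and carry no test.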

How the data were processed

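Bulk RNA sequencing of 3 control and 3 mutant libraries was used, grouped by the genotype in the labels. The authors trimmed reads with Trim Galore 0.6.4, mapped them to GRCm38 with STAR 2.6.1d and counted them per gene with featureCounts 1.6.4. The authors deposited raw counts of reads for each gene, not normalized. Per the file headers the counting ignored strand, so that reads of a gene and an antisense neighbour cannot be told apart. Where genes share exon bases this is stated.

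Counts were tested with edgeR 4.0.16 in R 4.3.3 (filterByExpr with a minimum count of 10 and a minimum total of 15, TMM factors of 0.964 to 1.02, glmQLFit and glmQLFTest, genotype only), with Benjamini-Hochberg adjustment over 16813 genes and a threshold of 0.05. The study used DESeq2 with litter and genotype, but litter is not in the labels used here. Replicates are separate samples in the labels, and p-values measure the spread between them. Replicate libraries were not copies of each other, with a chi-square of 10.6 to 40.8 for each degree of freedom. The scripts were tested on simulated data. Correlations used log2 CPM with a prior count of 2. Alternatives were DESeq2 1.42.0, limma-voom (limma 3.58.1), upper-quartile factors, other filters, the replicate number as a block, and each library left out.

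The members and lists were chosen with earlier results of these data known. Genes were named by a fixed rule: the 10 genes, the called relatives of each list or else the 2 with the lowest p, the 5 genes most like the mean of the 10, Idh1, Col2a1, and markers where a summed level is given. Some genes that this rule names are not reported here. Neighbouring genes were listed by distance. Single-cell data, protein sequences and the authors' own comparisons were not used here. Plots were made in Python 3.11.15 (matplotlib 3.10.9).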

Additional observations from a re-analysis of the deposited data

How the results depend on the processing

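The directions of the 10 genes held in every fit that tested them. The choice of genes for lower levels in the mutants, together with the lack of overlap between the groups, largely fixes this. Their fold changes moved by less than the spread between replicates in 69 of 69 results under other settings. The same held for 59 of 60 fold changes from the fits without 1 library, which share most of their libraries. The exception was Ptchd3, at -3.38 without mutant 2. The number of genes called was 32, against 193 with DESeq2, 96 with DESeq2 and the replicate block, 3 with edgeR and the replicate block, 19 with limma-voom, 259 without the low-count filter, and 3 to 17 without 1 library, the fewest without mutant 2. The share of calls that were higher was 28.1%, against 36.8% with limma-voom, 66.7% with edgeR and the replicate block, and 29.4% to 66.7% without 1 library, the highest without mutant 2. Of the 10 genes, DESeq2 called 10 with and without the block, limma-voom 5, upper-quartile factors 8, the strict filter 7 of 9 tested, and edgeR with the block 0. Of all 16813 genes, those called lower were 140 with DESeq2, 70 with DESeq2 and the block and 12 with limma-voom. They were 20 with upper-quartile factors and 1 with edgeR and the block, and 18 of 15342 with the strict filter. The calls of the 10 genes support nothing, because the same contrast chose them. Without 1 library edgeR called Tshz2 alone in 5 fits and 0 of the 10 genes without mutant 2. Relatives called were 2 with DESeq2 (Abca8a and Ptch1), 1 with DESeq2 and the block (Abca8a), 3 without the filter (with Lgi2), and 0 otherwise. Same-numbered libraries did not deviate together (r of -0.13, 0.01 and -0.10), so the numbers were not taken as pairs. Their cause was not tested. Protein features were not run. Depth limits Ptchd3 most, with 19 counts over all mutants.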

Other observations

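The protein-coding genes nearest the 10 genes did not move with them as a group. Of 20 such neighbours, between 2.44 and 238.3 kb away, 16 were tested and 0 were called by edgeR or limma-voom and 1 by DESeq2 (Abca8a, also the 1 with an unadjusted p under 0.05), and 8 of 16 had a fold change below 0. The median log2 fold change was 0.01, from -0.68 for Abca8a to 0.16 for Myf6. Abca6, which lies 8.62 kb from Abca9, had a log2 fold change of -0.30 (SE 0.25, adjusted p = 0.815, edgeR). Myf6 and Myf5, the muscle-forming factors near Ptprq, had log2 fold changes of 0.16 (SE 0.22) and 0.05 (SE 0.36).

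Ccl19, a ligand of ACKR4, was named after its values were seen. Controls held 7, 4 and 7 counts of it and mutants 0, 0 and 1, and it did not pass the expression filter, so no fold change is given.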
